A study of Mus musculus with 18 samples.

Results

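General splicing factors are the proteins that nearly every intron needs, or that many exons respond to. Their transcripts were followed here in the rat heart through the first weeks of life, in wild-type animals and in animals with a titin splicing mutation. The genes were chosen by name: every gene whose single annotated symbol starts with Hnrnp, Srsf, Snrp, Sf3a, Sf3b or U2af, read by its brightest probe set. This gave 50 genes of the 14217 with a probe set of their own, made up of 17 hnRNP genes, 11 SR genes, 10 snRNP protein genes, 9 SF3 genes and 3 U2AF genes. Of the 81 probe sets that carry these symbols, 33 genes had a single one and 17 had more.

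Pre-mRNA splicing is carried out by the spliceosome, a machine built on small nuclear RNAs. The Sm and other snRNP proteins form the core of the small nuclear ribonucleoproteins, U2AF marks the end of the intron, and the SF3A and SF3B complexes anchor the U2 particle at the branch point. SR proteins bind exons and mostly favour their use, while hnRNP proteins coat the transcript and often oppose it, so the balance between them sets many alternative exons. In the heart the weeks after birth are a time of broad change in splice forms, and titin moves from long, compliant forms to short, stiff ones, a change that depends on the muscle splicing regulator RBM20.

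The arrays came from 18 animals in 6 groups of 3: wild type and mutant, each at day 1, day 20 and day 49 after birth. The labels name the mutants only as mutant, the design text calls them homozygotes, and neither names the gene. The mutation arose in Sprague-Dawley rats, and these were crossed with Fisher 344 inbreds, so both strains contribute to the background, and the genotype is not restricted to any tissue by a promoter or Cre. The genotype field of the labels reads N2BA:N2B for every animal, so each animal's genotype was read from its source name and description. Titles speak of whole heart and the design text of ventricles from individual animals. The organism field names mouse, while the strains, the descriptions and the Affymetrix Rat 230 2.0 array are rat.

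Rbm20, the gene known from later work on this line, separated the labelled genotypes on every array. Its brighter probe set was lower in mutants by 5.04 ± 0.20 (SE) on the log2 scale at day 1, by 5.11 at day 20 and by 4.33 at day 49. Cardiomyocyte markers had a mean log2 level between 13.20 and 13.53 on the 18 arrays, and thymocyte markers between 4.57 and 5.28. At day 1, day 20 and day 49, 1, 1 and 2 of 3 animals of either genotype had high Xist, a transcript of female cells. Hybridization controls were lowest on the mutant day 49 arrays of replicates 1 and 2, at 8.09 and 8.71, against 9.00 to 9.85 on the other arrays.

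Not every member could be read well. In 8 probe sets a member shared the annotation with another gene, so Hnrnpk, Snrpc and Snrpg were not read at all, and Srsf3 and Snrpn were read only by dim probe sets. Srsf3, the pseudogene Srsf7-ps4 and Snrpn had mean levels of 4.23, 3.51 and 4.50, under the median of 5.47 over all probe sets. The other 47 members lay above it, Srsf7 only just, at 5.48. A level on such an array is relative to the rest of the RNA, and in whole tissue fewer cells of a type and less RNA per cell cannot be told apart.

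The largest pattern among the splicing factors was a fall with age. Between day 1 and day 20, 34 of the 50 members fell in the wild type and 1 rose (limma, adjusted p below 0.05). Over all 31042 probe sets, 15.6% were called lower and 12.6% higher, and among the brightest probe sets of each gene 21.8% were called lower. The median difference of the members was -0.48 on the log2 scale, beside 0.04 over all probe sets. All classes took part: 9 of 17 hnRNP genes, 7 of 11 SR genes, 8 of 10 snRNP protein genes, 8 of 9 SF3 genes and 2 of 3 U2AF genes fell.

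**Figure D1:**
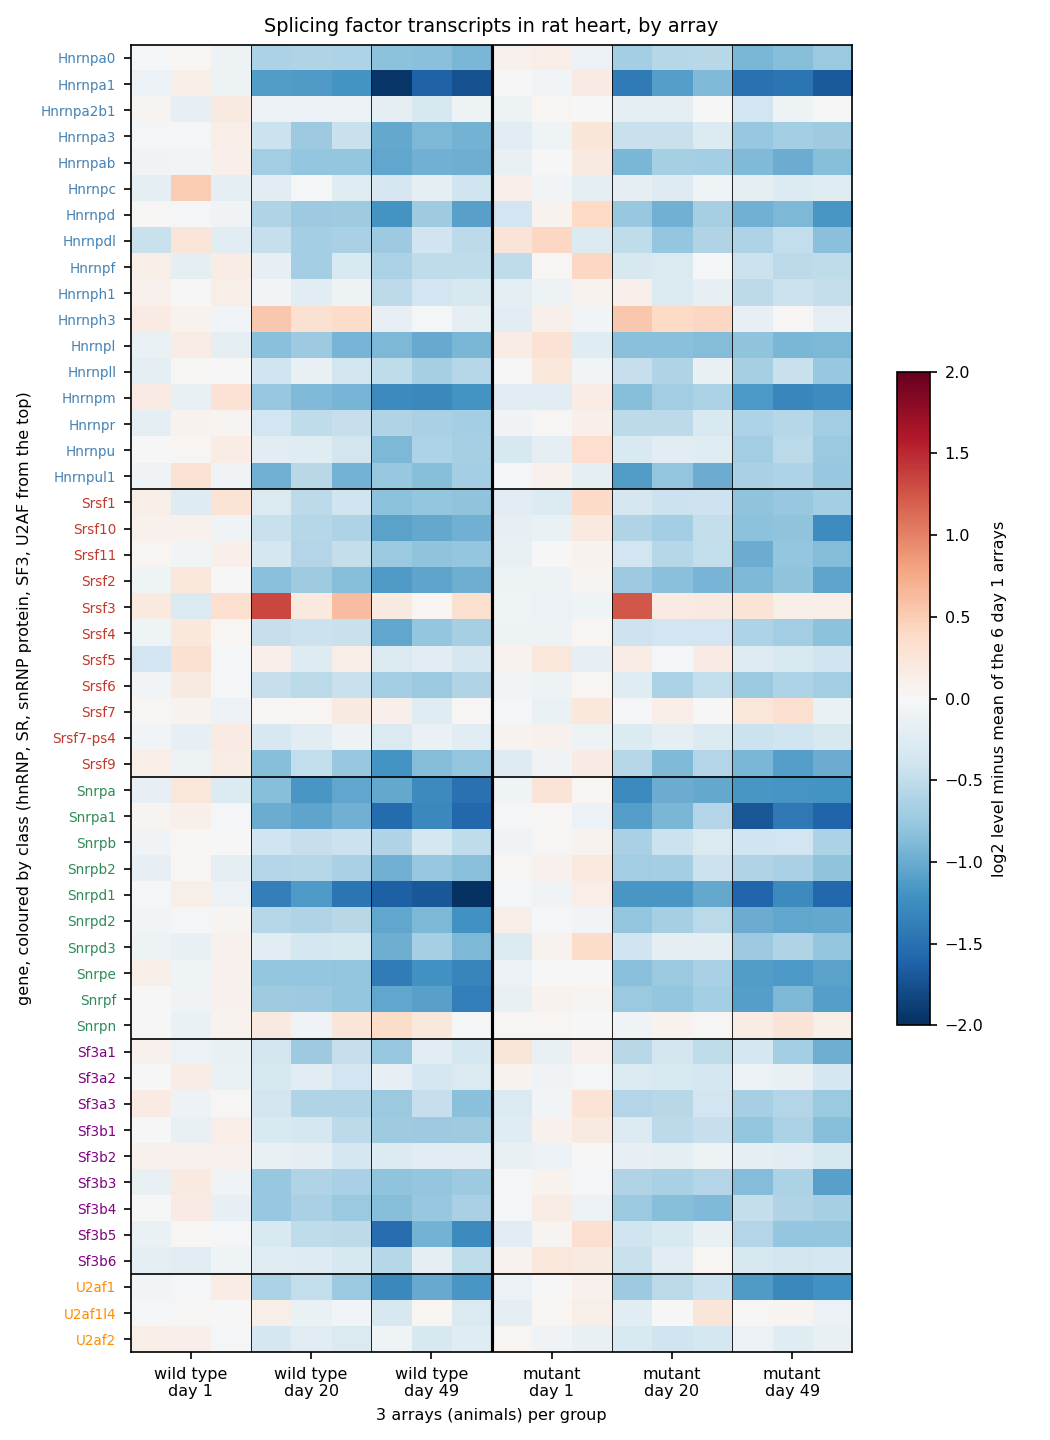
Log2 level of each of the 50 members (vertical axis, by class) on each of the 18 arrays (horizontal axis, 3 animals per group), as the difference from the mean of the 6 day 1 arrays of that member. Most members turn blue, lower, from day 1 to day 20 and deeper blue at day 49 in both genotypes. Hnrnph3 is redder, higher, at day 20 than at the other ages. The reddest cells are those of the dim Srsf3 on single day 20 arrays.

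The snRNP protein genes included the largest fall of any member. Snrpd1, which encodes a protein of the Sm ring around the small nuclear RNAs, stood at 8.10, 8.26 and 8.03 in the wild type at day 1, at 6.78, 7.01 and 6.68 at day 20 and at 6.52, 6.44 and 6.17 at day 49. The 3 ages did not overlap. Its fall to day 20 was 1.30 ± 0.12 (SE, n = 3 per age) on the log2 scale, 2.47-fold, with a limma adjusted p of 1.2e-07. A second, dimmer probe set of the gene differed by -0.15 ± 0.11 and was not called, so the size of this fall depends on the probe set read.

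Snrpe, another Sm protein, had levels of 11.33, 11.12 and 11.29 at day 1, 10.43, 10.44 and 10.41 at day 20, and 9.82, 10.00 and 9.89 at day 49 in the wild type. Each age lay wholly below the one before it. In the mutant the values were 11.09, 11.20 and 11.21, then 10.36, 10.47 and 10.55, then 10.09, 10.06 and 10.14, with the same order and no overlap. It fell to day 20 by 0.82 ± 0.08 in wild-type animals and 0.71 ± 0.08 in mutants (limma adjusted p = 6.42e-07 and 3.7e-06). Snrpa1, a protein of the U2 particle, fell by 1.04 ± 0.12 in wild-type animals and 0.83 ± 0.12 in mutants. Snrpa, a protein of the U1 particle, fell by 0.94 ± 0.14 and 1.17 ± 0.14 in the same order. The Sm genes Snrpf, Snrpd2 and Snrpb and the U2 gene Snrpb2 fell too, by 0.74, 0.57, 0.42 and 0.50 in the wild type. Snrpd3 was not called, at -0.24 ± 0.13, nor was Snrpn, at 0.14 ± 0.10 on its dim probe set.

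Most SF3 and U2AF genes, which act together when the branch point is chosen, fell as well. Sf3b4 read 9.31, 9.49 and 9.16 in the wild type at day 1 and 8.57, 8.67 and 8.59 at day 20, a fall of 0.71 ± 0.10 (limma adjusted p = 2.51e-05). Its 3 mutant arrays went from 9.30, 9.48 and 9.22 to 8.58, 8.47 and 8.45. No day 20 array of either genotype reached a day 1 array. Sf3b3 fell by 0.66 ± 0.11, Sf3a3 by 0.56 ± 0.13 and Sf3a1 by 0.46 ± 0.16 in the wild type. Sf3b1, the largest SF3B subunit and the one that clamps the branch point, fell by 0.38 ± 0.11 (adjusted p = 0.0154). The call for Sf3a1 (adjusted p = 0.0369) was lost on leaving out any of 5 of the 6 arrays compared, with adjusted p up to 0.153, and with the replicate number as a block (adjusted p = 0.0547). Sf3b6, the SF3B subunit that contacts the branch point adenosine, was the only SF3 gene not called in the wild type, at -0.11 ± 0.11.

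U2af1, the U2AF subunit that reads the last bases of the intron, stood at 8.66, 8.67 and 8.87 at day 1, 8.09, 8.22 and 7.98 at day 20, and 7.43, 7.71 and 7.56 at day 49 in the wild type. It lost level at both steps, with no overlap between ages. The first fall was 0.64 ± 0.10 (limma adjusted p = 0.000138). U2af2, the partner that binds the pyrimidine tract, fell by 0.35 ± 0.09, while its other probe sets differed by 0.16 ± 0.14 and 0.38 ± 0.17 and were not called in the wild type. U2af1l4, a close relative of U2af1, was not called and differed by -0.03 ± 0.12.

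SR proteins split into those that fell and those that held no call. Srsf2, which binds exonic enhancers, read 10.79, 11.10 and 10.89 at day 1 and 10.03, 10.16 and 10.02 at day 20 in the wild type. Its mutant arrays read 10.77, 10.78 and 10.93, then 10.16, 10.03 and 9.94. The ages did not overlap in either genotype, and the falls were 0.85 ± 0.10 and 0.78 ± 0.10 (limma adjusted p = 2.84e-06 and 8.15e-06). Srsf9 fell by 0.75 ± 0.13, Srsf10 by 0.58 ± 0.12, Srsf6 by 0.51 ± 0.10, Srsf4 by 0.50 ± 0.10, Srsf11 by 0.49 ± 0.09 and Srsf1, the founding member of the family, by 0.44 ± 0.15. Srsf5 differed by 0.03 ± 0.15 and Srsf7 by 0.10 ± 0.12, and neither was called. Srsf3 differed by 0.63 ± 0.26 (limma adjusted p = 0.0842, or 0.0379 with the replicate number as a block) on its dim probe set. Its wild-type day 20 arrays read 5.31, 4.16 and 4.59.

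In the hnRNP class the falls ran alongside 1 rise. Hnrnpa1, a repressor of many exons, stood at 10.44, 10.68 and 10.46 at day 1, 9.45, 9.44 and 9.37 at day 20, and 8.62, 8.95 and 8.82 at day 49 in the wild type. Its mutant arrays read 10.57, 10.50 and 10.73, then 9.15, 9.47 and 9.68, then 9.07, 9.09 and 8.88. The ages were apart in both genotypes, and no other member had as wide a range of group means, 1.80 on the log2 scale. Its falls to day 20 were 1.11 ± 0.12 and 1.17 ± 0.12 (limma adjusted p = 1.71e-06 and 9.65e-07). The dimmer probe sets 1372693_at and 1375612_at of Hnrnpa1 differed by less, -0.62 ± 0.14 and -0.56 ± 0.21 in the wild type. The second was not called there (limma adjusted p = 0.0550). In the mutant they fell by 0.61 ± 0.14 and 0.85 ± 0.21. From day 20 to day 49 neither was called in either genotype, so the later fall of Hnrnpa1 depends on the probe set read. Hnrnpm fell by 0.96 ± 0.12 in the wild type and 0.63 ± 0.12 in the mutant. Hnrnpul1, Hnrnpl, Hnrnpab and Hnrnpd fell by 0.87, 0.77, 0.73 and 0.65 in the wild type. Hnrnpc and Hnrnpf, at -0.21 ± 0.14 and -0.41 ± 0.18, were not called.

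Hnrnph3, a small relative of the hnRNP H proteins, went the other way and back. Wild-type levels were 7.80, 7.71 and 7.59 at day 1, 8.17, 7.95 and 8.01 at day 20, and 7.47, 7.61 and 7.44 at day 49. Mutant levels were 7.42, 7.73 and 7.58, then 8.18, 8.04 and 8.05, then 7.47, 7.66 and 7.45. In both genotypes every day 20 array was above every array of the other ages. It rose by 0.34 ± 0.10 in the wild type and 0.52 ± 0.10 in the mutant (limma adjusted p = 0.0156 and 0.000754), then fell by 0.54 ± 0.10 and 0.56 ± 0.10. Its second probe set also rose to day 20, by 0.35 ± 0.11 and 0.37 ± 0.11, and its later differences of -0.31 ± 0.11 and -0.10 ± 0.11 were not called. The wild-type rise lost its call on leaving out either of 2 arrays in turn, with adjusted p up to 0.0852.

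The mutant gave much the same members at this step. In it 35 of 50 fell and 1 rose (limma), where 15.9% of all probe sets were called lower and 12.4% higher, and 21.9% of the brightest probe sets per gene were called lower. The median difference was -0.46. The fall was shared by 31 members, 91.2% of those that fell in the wild type and 88.6% of those that fell in the mutant, while 12.3% of all probe sets were called lower in both. Sf3b2, Sf3b5 and Srsf1 passed in the wild type alone, and Hnrnpdl, Hnrnpll, Sf3b6 and Srsf7-ps4 in the mutant alone. By another probe set, 1374072_at, Srsf1 fell in wild type and mutant, by 0.75 ± 0.14 and 0.68 ± 0.14. Hnrnpdl did so by 1371333_at, by 0.62 ± 0.18 and 1.01 ± 0.18. The probe sets 1378967_at of Hnrnpdl and 1377070_at of Sf3b2 were called in neither genotype. With the replicate number as a block in the wild type, Hnrnpdl was called there too (adjusted p = 0.0454). None of these 7 was called in the F test of genotype by age, so passing in one genotype shows no difference between them. The genotypes share no animals at this step, since each has its own day 1 and day 20 arrays.

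**Figure D2:**
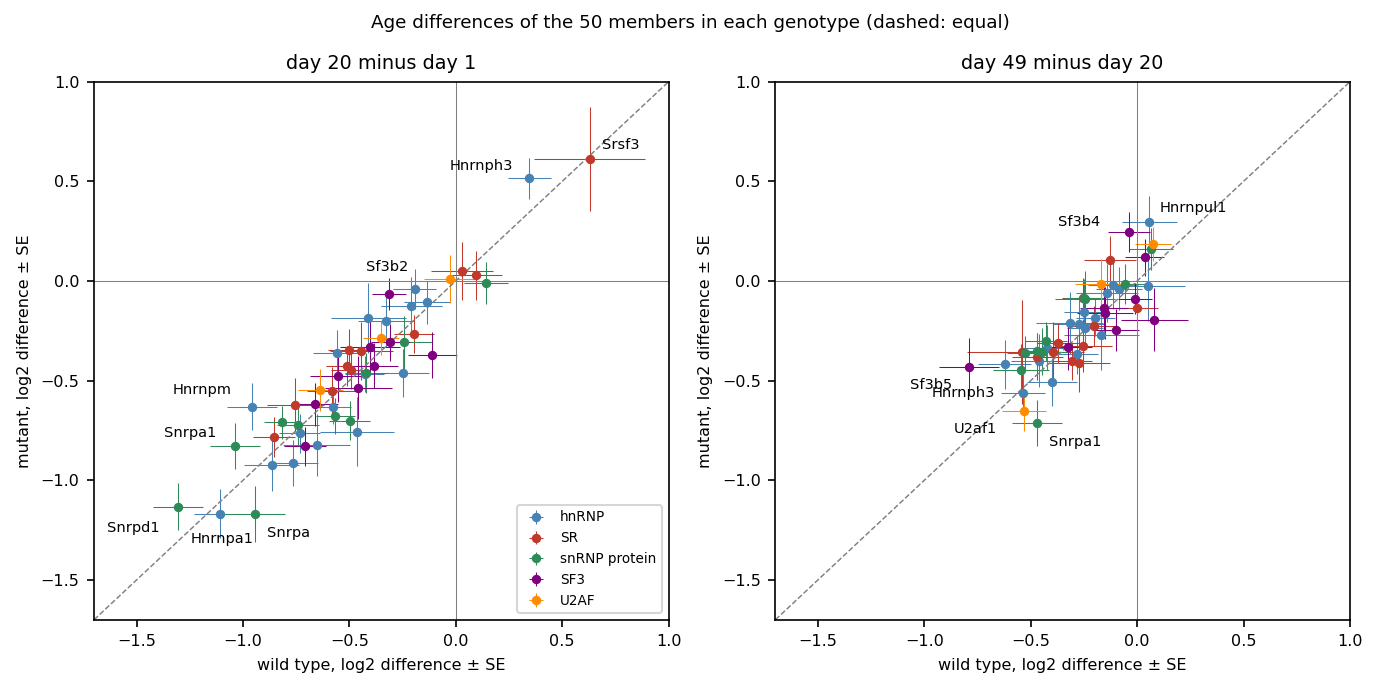
Log2 difference of each member in the wild type (horizontal axis) against the mutant (vertical axis), with standard errors, for day 20 minus day 1 on the left and day 49 minus day 20 on the right; colours mark the class and the dashed line marks equal differences. Snrpd1, Hnrnpa1 and Snrpa lie lowest on the left, Hnrnph3 and the dim Srsf3 lie above 0, and Sf3b5 lies farthest left on the right.

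The members fell in step with markers of dividing cells at this first step. Of 22 measured cycling cell markers, 21 fell in each genotype, with a median difference of -2.93 in the wild type and -2.58 in the mutant. Their mean level per array was 8.39 to 8.64 at day 1 and 5.56 to 6.19 at day 20. With that mean as a covariate 0 members were called in either genotype (limma). But the count over all probe sets also went from 8737 to 0 in the wild type and from 8764 to 1 in the mutant. The median standard error of the members went from 0.11 to 0.90 and 0.79. The marker mean and age therefore cannot be told apart across this step. Cardiomyocyte markers rose in 7 of 11 and fell in 1, and leukocyte markers rose in 6 of 10 in the wild type. Fibroblast markers fell in 4 of 9 and rose in 3 there, and smooth muscle markers fell in 3 of 7 and rose in 3. Atrial and conduction markers fell in 3 of 8 and rose in 1. The gap between the 3′ and 5′ Gapdh probe sets, a sign of RNA length, was 0.94 and 1.03 on average at day 1 in wild type and mutant and 0.58 and 0.49 at day 20. The part of these in the falls was not tested beyond the covariate fits.

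From day 20 to day 49 the fall went on more slowly. In the wild type 16 of 50 members fell and 0 rose (limma), where 6.05% of all probe sets, and 7.62% of the brightest probe sets per gene, were called lower and 3.53% higher. The median difference was -0.25, beside 0.02 over all probe sets. Of the members 0 were called higher, and 25 of 50 had an unadjusted p under 0.05 in either direction, beside 23.6% of all probe sets. The 16 that fell comprised 5 hnRNP genes, 3 SR genes, 6 snRNP protein genes, 1 SF3 gene and 1 U2AF gene. The cycling cell markers had a median difference of 0.07 at this step, with 1 of 22 called lower. With their mean as a covariate 15 members were called. Leukocyte markers rose in 7 of 10, by a median of 0.63, and the mean Gapdh gap went from 0.58 to 0.35 in the wild type. Atrial and conduction markers fell in 3 of 8 (median -0.77), fibroblast markers in 3 of 9 (median -0.25) and erythroid markers in 1 of 6 (median -0.64). The part of these markers in the falls of the members was not tested.

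Sf3b5, a small subunit of the SF3B complex, fell most. Its wild-type arrays read 9.67, 9.83 and 9.78 at day 1, 9.50, 9.29 and 9.28 at day 20 and 8.29, 8.87 and 8.54 at day 49. The day 49 arrays lay wholly below the others, and the later fall was 0.79 ± 0.14 (limma adjusted p = 0.00165). Hnrnpa1 fell by a further 0.62 ± 0.12, Snrpd3, an Sm protein, by 0.54 ± 0.13, Snrpe by 0.53 ± 0.08, U2af1 by 0.53 ± 0.10, Snrpa1 by 0.47 ± 0.12, Snrpd2 by 0.47 ± 0.09 and Snrpd1 by 0.45 ± 0.12. The second, dimmer probe set of Snrpd1 differed by -0.03 ± 0.11 at this step and was not called. Among SR genes Srsf10 fell by 0.47 ± 0.12, Srsf4 by 0.37 ± 0.10 and Srsf11 by 0.31 ± 0.09. Hnrnpu, a nuclear matrix protein that binds RNA, fell by 0.46 ± 0.13 and Hnrnpa3 by 0.42 ± 0.11. The call for Srsf11 was lost on leaving out any of 5 of the 6 arrays compared (limma adjusted p up to 0.201). Those for Srsf4, Hnrnpu and Hnrnpa3 were lost with any of 4, Snrpa1 and Snrpd3 with any of 3, and Srsf10 with any of 2. Sf3b5, Hnrnpa1, Snrpe, U2af1 and Snrpd2 kept theirs with each array left out in turn. In all, 13 members fell at both steps in the wild type, beside 2.68% of all probe sets: Hnrnpa1, Hnrnpa3, Hnrnpm, Sf3b5, Snrpa1, Snrpd1, Snrpd2, Snrpe, Snrpf, Srsf10, Srsf11, Srsf4 and U2af1. The first fall of Sf3b5 had a limma adjusted p of 0.0412, and of 0.0507 with the replicate number as a block.

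In the mutant 10 of 50 members fell from day 20 to day 49 and 0 rose (limma), where 6.23% of all probe sets were called lower and 3.92% higher, and 7.52% of the brightest probe sets per gene lower, and 27 members had an unadjusted p under 0.05, beside 25.3% of all probe sets. The median difference was -0.23. Snrpa1 fell by 0.71 ± 0.12, from 6.34, 6.54 and 6.86 to 5.74, 6.01 and 5.84, and U2af1 fell by 0.65 ± 0.10, from 8.00, 8.19 and 8.28 to 7.58, 7.42 and 7.51. Neither gene overlapped between the ages. Hnrnph3, Hnrnpm, Snrpd3, Hnrnpa1, Srsf11, Snrpe and Snrpd2 fell as well, by 0.56, 0.51, 0.45, 0.42, 0.40, 0.36 and 0.35. The remaining call was Hnrnph1, at -0.37 ± 0.10 (adjusted p = 0.0251), which was not called in the wild type at -0.28 ± 0.10. In the mutant the call for Hnrnpa1 was lost on leaving out any of 5 of the 6 arrays compared (limma adjusted p up to 0.192). Those for Hnrnph1, Snrpd2 and Snrpd3 were lost with any of 4, and Hnrnpm and Snrpe with 1. Snrpa1, U2af1, Hnrnph3 and Srsf11 kept theirs with each array left out in turn. A second probe set of Srsf11, 1382056_at, differed by -0.01 ± 0.17 in the mutant and was not called. The later fall of Srsf11 there thus depends on the probe set read. Leukocyte markers rose in 9 of 10 in the mutant at this step, by a median of 0.94, atrial and conduction markers fell in 1 of 8 (median -0.47) and endothelial markers in 2 of 8 (median -0.18). Their part in these falls was not tested.

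Of the members that fell at this step, 9 did so in both genotypes, 56.2% of the wild-type list and 90% of the mutant list, where 3.85% of all probe sets were lower in both. Sf3b5 was not called in the mutant, at -0.43 ± 0.14 (adjusted p = 0.0621), nor were Snrpd1 and Srsf10, at -0.36 ± 0.12 and -0.38 ± 0.12. These later counts rested on single arrays more than the earlier ones. The wild-type count was 8 without replicate 1 of day 20, without replicate 1 of day 49 and without replicate 3 of day 49. The mutant count was 4 without replicate 3 of day 20, 6 without replicate 3 of day 49 and 5 without the 2 arrays with low hybridization controls. It was 17 with arrays centred on their medians, 17 with only the brighter probe sets tested, and 16 with the Gapdh gap as a covariate.

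Across both genotypes, the spread of single arrays showed how regular the fall was. In 33 of 50 members all 6 day 1 arrays were above all 6 day 20 arrays, against 13.0% of all probe sets. In 19 members all day 20 arrays were above all day 49 arrays, against 7.41%, and in 36 all day 1 arrays were above all day 49 arrays, against 18.6%. In 14 members, against 2.74%, the arrays of the 3 ages formed 3 separate blocks in falling order. These were Hnrnpa0, Hnrnpa1, Hnrnpm, Hnrnpr, Sf3b1, Snrpa1, Snrpd2, Snrpe, Snrpf, Srsf1, Srsf10, Srsf11, Srsf4 and U2af1, which come from every class. At the other end, 8 members were called in none of the 4 age comparisons, beside 58.9% of all probe sets: Hnrnpa2b1, Hnrnpc, Hnrnpf, Snrpn, Srsf3, Srsf5, Srsf7 and U2af1l4. Their highest and lowest arrays by age overlapped in the wild type at both steps. The shares beside these counts are over all probe sets, dim ones included, while members are the brightest probe sets of their genes. No share over the brightest probe sets per gene was taken for them. The same holds for the shares called lower in both genotypes or at both steps.

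**Figure D3:**
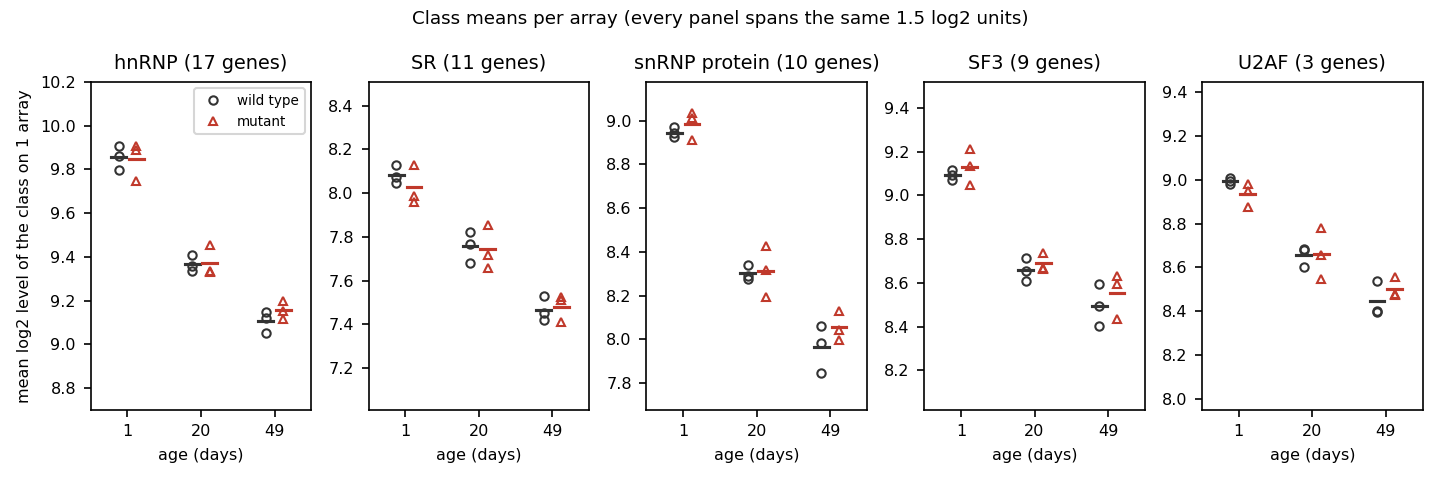
Mean log2 level of each class on each array (vertical axis) by age in days (horizontal axis); circles are wild-type animals, triangles are mutant animals and bars are group means of 3. In every class both genotypes step down with age, and circles and triangles of an age lie close together.

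Genotype left these genes without a call. Mutant and wild type differed in 0 of 50 members at day 1, day 20 and day 49 and in the mean over ages (limma, adjusted p below 0.05), where 0.110%, 0.139%, 0.606% and 1.39% of all probe sets were called. An unadjusted p under 0.05 was reached by 3, 0, 4 and 4 members, beside 6.70%, 4.27%, 8.16% and 9.63% of all probe sets, so these counts lay near or below the background. The F test of whether the genotype difference changed with age called 0 members and 0.0741% of all probe sets, and Sf3b5, Snrpe and Sf3b2 had its smallest unadjusted p of 0.0959, 0.0976 and 0.111. The 95% interval of the genotype difference lay within 0.5 on the log2 scale in 47 members at day 1, 48 at day 20, 46 at day 49 and all 50 in the mean over ages. The lowest and highest bounds at a single age were -0.74 and 0.83, for the dim Srsf3 at day 20 and Sf3b5 at day 49.

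**Figure D4:**
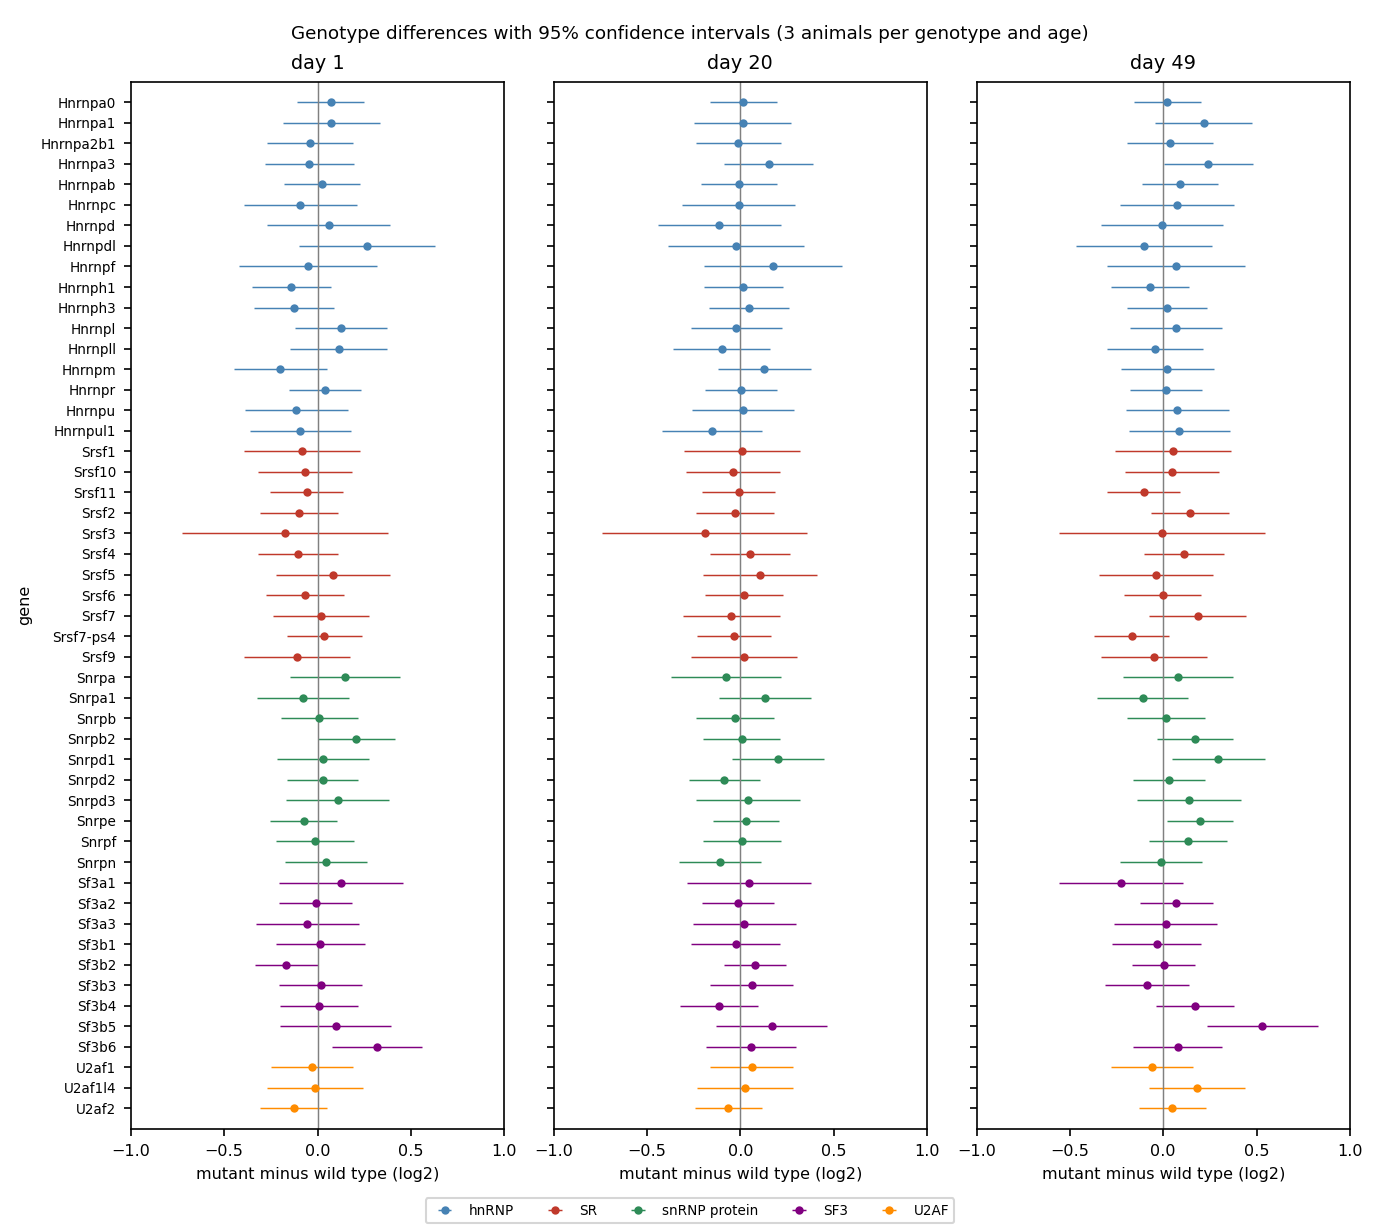
Mutant minus wild type difference on the log2 scale (horizontal axis) of each of the 50 members (vertical axis, coloured by class) at day 1, day 20 and day 49, with 95% confidence intervals from the limma model of 3 animals per group. Most intervals span 0, and Sf3b5 at day 49 lies farthest to the right with an interval from 0.23 to 0.83.

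Sf3b5 came nearest to a genotype call. At day 49 its mutant arrays read 9.22, 9.03 and 9.03 and its wild-type arrays 8.29, 8.87 and 8.54. Every mutant array was above every wild-type array, the difference was 0.53 ± 0.14, and the limma adjusted p was 0.126. Over the alternatives tried the adjusted p ran from 0.0430 to 0.532, and it passed on leaving out wild-type replicate 2 of day 49 (difference 0.68) and with the Gapdh gap as a covariate (difference 0.57, adjusted p = 0.0456). In the mean over ages it differed by 0.27 ± 0.08 (adjusted p = 0.163), and it passed there, at 0.37 with adjusted p = 0.0473, without the 3 day 1 arrays whose Gapdh gap was over 1. At day 1 and day 20 its differences were 0.10 ± 0.14 and 0.17 ± 0.14. Cycling cell markers were higher in the mutant at day 49 in 20 of 22, by a median of 0.27 with 0 called and 6 at an unadjusted p under 0.05. Other markers were higher in the mutant at that age too: Myh7, a myosin of the cardiomyocyte list, by 1.96 ± 0.19 (limma adjusted p = 1.5e-05), Postn, a matrix gene of the fibroblast list, by 1.12 ± 0.23 (adjusted p = 0.0289), fibroblast markers in 8 of 9 by a median of 0.30, leukocyte markers in 9 of 10 by a median of 0.24 and erythroid markers in 5 of 6 by a median of 0.43. Myh7 was the only 1 of 11 cardiomyocyte markers that was higher at day 49. The other 10 were lower, with a median of -0.08 over the list and 0 called lower. In the mean over ages Myh7, the atrial gene Nppa and 5 of 22 cycling cell markers, Cdk1, Kif20a, Cks2, Mki67 and Ccnb2, were called higher. There 8 of 11 cardiomyocyte markers were lower, with 0 called lower. The part of these markers in the Sf3b5 difference was not tested.

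At day 49, 4 other members had groups that did not overlap, beside 6.70% of all probe sets above and 6.96% below. Snrpd1 was above the wild type by 0.29 ± 0.12 (limma adjusted p = 0.460), with 6.57, 6.87 and 6.58 against 6.52, 6.44 and 6.17. By its second, dimmer probe set Snrpd1 differed by 0.03 ± 0.11, and the groups overlapped. Hnrnpa3 was above by 0.24 ± 0.11 and Snrpe by 0.20 ± 0.08, and Srsf7-ps4 was below, at -0.17 ± 0.10. None of the 4 was called. At day 1, where 4.74% of all probe sets lay above and 4.33% below, Sf3b6 was above, with 9.95, 10.10 and 10.07 in mutants and 9.70, 9.67 and 9.80 in wild types, a difference of 0.32 ± 0.11 (adjusted p = 0.513). Sf3b2 was below at that age, with 9.48, 9.50 and 9.63 against 9.70, 9.70 and 9.71, a difference of -0.17 ± 0.08 (adjusted p = 0.746). At day 20, beside 4.67% above and 5.76% below, the only such member was Srsf4, above by 0.05 ± 0.10. Among members whose difference had the same sign at all 3 ages, Snrpd1 and Sf3b6 followed Sf3b5 in the mean over ages with 0.18 and 0.15, and Srsf3 and Srsf11 stood at -0.12 and -0.06, none of them called.

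Probe sets of 1 gene did not always move together. Hnrnpa2b1, an exon repressor closely related to Hnrnpa1, had 4 of them. The brightest, 1398883_at, was not called with age and differed by -0.14 ± 0.11 from day 1 to day 20 in the wild type. A dimmer one, 1395561_at, read 7.39, 7.30 and 7.49 at day 1 and 8.55, 7.76 and 8.38 at day 20 in the wild type, a rise of 0.84 ± 0.29 (limma adjusted p = 0.0350). In the mutant it rose by 0.89 ± 0.29, but its day 1 arrays read 6.62, 7.30 and 8.40 and overlapped those of day 20. The Gapdh gap of the same mutant day 1 arrays was 1.37, 1.10 and 0.63, and its part in this spread was not tested. The dimmest, 1378543_at, went from 6.79, 6.89 and 6.92 to 6.12, 6.02 and 5.91 and then to 5.40, 5.59 and 5.54, falls of 0.85 ± 0.14 and 0.51 ± 0.14. So the same gene had no call, rose or fell with the probe set read, and for 1395561_at and 1378543_at the wild-type arrays of day 1 and day 20 did not overlap.

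**Figure D5:**
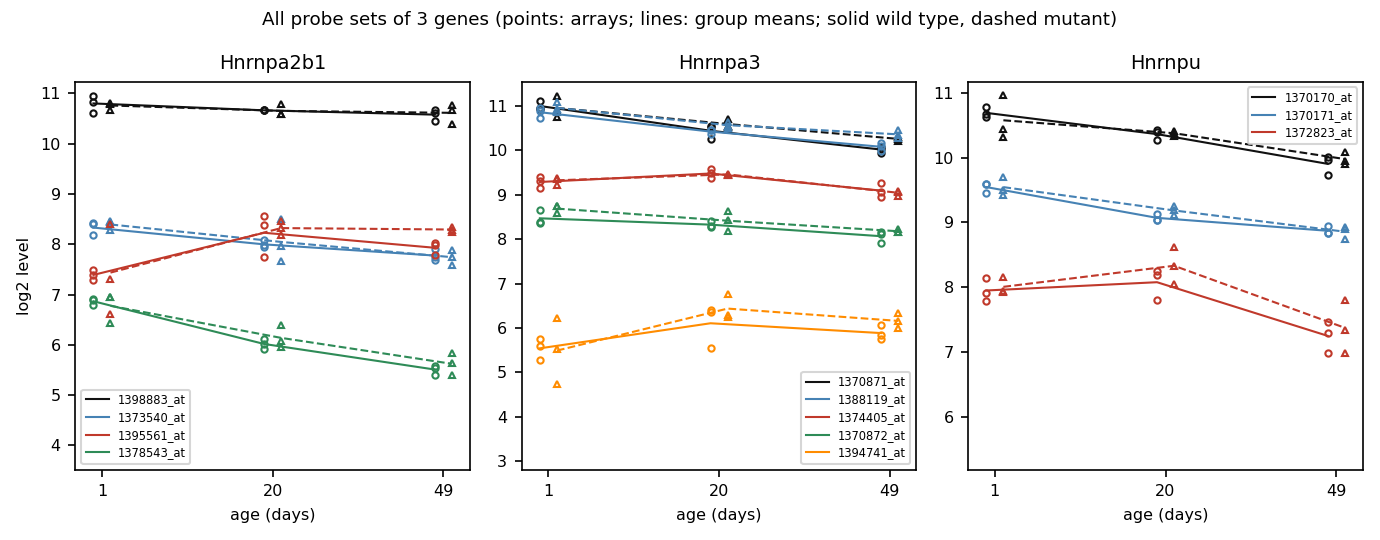
Log2 level (vertical axis) by age in days (horizontal axis) of every probe set of Hnrnpa2b1, Hnrnpa3 and Hnrnpu; circles and solid lines are wild-type arrays and means, triangles and dashed lines are mutant. Probe set 1395561_at of Hnrnpa2b1 and 1394741_at of Hnrnpa3 go up from day 1 to day 20 while the brightest probe sets do not, and 1372823_at of Hnrnpu drops after day 20.

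Hnrnpa3 fell to day 20 by its brightest probe set and by 1388119_at, by 0.36 ± 0.11 and 0.39 ± 0.09 in the mutant. Its dim probe set 1394741_at rose there by 0.95 ± 0.28, with mutant day 1 arrays spread over 4.73, 5.52 and 6.21. The probe sets 1374405_at and 1370872_at of this gene were not called there, at 0.13 ± 0.10 and -0.27 ± 0.11. In the wild type they differed by 0.19 ± 0.10 and -0.14 ± 0.11, also without a call. Hnrnpu fell after day 20 by 0.83 ± 0.19 in the wild type and 0.96 ± 0.19 in the mutant by 1372823_at, more than by its brightest probe set. The brightest was not called in the mutant, at -0.40 ± 0.13. By 1370171_at Hnrnpu fell by 0.33 ± 0.09 in the mutant and was not called in the wild type, at -0.20 ± 0.09. U2af2 rose to day 20 by 0.47 ± 0.17 in the mutant by 1395614_at, against a fall of 0.29 ± 0.09 by its brightest. Srsf10 rose by 0.37 ± 0.13 in the wild type by 1380269_at, at mean levels of 3.48 and 3.85, in the range of the dimmest probe sets. Which transcript forms these probe sets read was not analysed here.

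Falls were also counted in the wider splicing machinery. From day 1 to day 20 in the wild type, 21.8% of the brightest probe sets per gene were called lower and 14.3% higher. Beside these shares, 22 of 44 Prp proteins, helicases and other spliceosome proteins fell and 3 rose. Of 12 LSm proteins 7 fell and 1 rose. Of 13 genes listed with the SMN complex, which assembles Sm rings, 7 fell and 1 rose. Of 7 genes in the exon junction list, which includes Upf2, Upf3a and Upf3b, 4 fell. Lsm11, which belongs to the histone-processing U7 particle, fell by 1.16 ± 0.12, Gemin4 of the SMN complex by 1.22 ± 0.15, and the helicase Ddx39b, which works with U2AF, by 0.83 ± 0.09. Cwc15 and Slu7, both of the catalytic spliceosome, rose by 0.53 ± 0.11 and 0.53 ± 0.14. Of the other proteins named Snrnp, 2 of 6 fell, Snrnp70 of the U1 particle by 0.87 ± 0.13, and Snrnp27 rose by 0.31 ± 0.09. From day 20 to day 49, when 7.62% of the brightest probe sets per gene were called lower and 4.53% higher, 5 of the 12 fell. The counts of 4 of the 44 and 1 of the 7 lay near the share over all genes, 0 of the 13 lay below it, and 0 of these genes rose (limma). An unadjusted p under 0.05 was reached at this step by 13, 7, 2 and 2 genes of the Prp, LSm, SMN and exon junction lists. Lsm11 fell by a further 1.14 ± 0.12.

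Several regulators of SR proteins fell as well. Of 10 kinases and phosphatases that set SR protein phosphorylation, 6 fell to day 20 in the wild type and 3 to day 49, beside the shares of 21.8% and 7.62% over all genes. To day 20 the muscle kinase Srpk3 fell by 0.77 ± 0.14 and the phosphatase Ppp1cc by 0.59 ± 0.07. The kinases Clk4 and Clk2 fell after day 20, by 0.58 ± 0.12 and 0.41 ± 0.11. Of 16 SR-related cofactors 9 fell to day 20 and 5 to day 49, beside the same shares, with Srrm2 at -0.67 ± 0.15 at the first step and Luc7l3 at -0.69 ± 0.13 at the second.

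Among 34 muscle splicing regulators, 16 fell and 4 rose from day 1 to day 20 in the wild type. Beside 21.8% lower and 14.3% higher over all genes, the count of rises lay near the share over all genes. Rbfox1, a regulator of heart and brain exons, rose by 3.54 ± 0.18, and Mbnl1 and Celf2 rose by 0.80 ± 0.10 and 0.74 ± 0.24. Ptbp1 and Ptbp2, repressors of muscle and neural exons, fell by 0.83 ± 0.10 and 0.76 ± 0.13, and Khsrp by 1.19 ± 0.11. From day 20 to day 49, 11 of 34 fell, beside 7.62%, with Rbm5 at -0.75 ± 0.13. In the genotype comparisons Rbm20 was called at each age and Khdrbs3 in the mean over ages, at -0.25 ± 0.06 (limma adjusted p = 0.0405), and no gene of the other 7 pathway lists was called by its brightest probe set.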

How the data were processed

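RNA from 18 hearts was read on rat expression arrays. Per the design text in the labels, the authors made the deposited log2 values from scanner files by robust multi-array analysis (RMA), a robust average of background-corrected perfect-match probes. No version of RMA is named in the submitters' processing notes. Values were used as deposited. Of 31099 probe sets, 57 controls were left out, and gene names came from the platform annotation, which can be old. Even a probe set at background gets a level under RMA, so differences between dim levels are compressed, and most probe sets do not tell splice forms apart. Depth has no counterpart on arrays; the number of animals limits the precision.

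The tests were limma's (version 3.58.1, run under R 4.3.3, with lmFit and eBayes) in 1 model of 6 groups, with 12 residual and 5.77 prior degrees of freedom, two-sided, with Benjamini-Hochberg adjustment over 31042 probe sets; a call is an adjusted p below 0.05. The fit was checked on simulated data. Errors are standard errors of the model unless stated. Figures were drawn with matplotlib 3.10.9.

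Members and lists were chosen with earlier results of these data known. Named were: the called members of largest change in each class and age comparison; the members of largest genotype difference whose groups did not overlap; the smallest F test values; genes whose probe sets were called in opposite directions; the dimmest members; and the largest changes in each pathway list. Genes outside these, such as those with no call, were named after their values were seen. The alternatives were other scaling, filters, fits, probe sets, covariates, a replicate block and left-out arrays. The labels number the animals of each group and do not say that a number links animals. Deviations of same-numbered arrays from their group means correlated at 0.10 to 0.19 in all 3 pairs of wild-type day 1 and day 20, and over 0.1 in only 1 or 2 of 3 pairs in the other comparisons, so the block was taken up for that wild-type step alone.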

Additional observations from a re-analysis of the deposited data

How the results depend on the processing

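Of 170 alternatives for the 9 counts of called members, 156 gave a count within 1.5 times the reported one and 14 did not. The day 20 to day 49 count in mutants, 10 as reported, was 17 with arrays centred on their medians, 17 with only probe sets above the median level tested, 16 with the Gapdh gap as a covariate and 5 without the 2 mutant day 49 arrays with low hybridization controls, an alternative chosen after seeing the data. With the cycling cell marker mean as a covariate, also chosen after seeing the data, the day 1 to day 20 count was 0 in both genotypes; single genes were not refitted under it. The genotype count was 1 at day 49 with the Gapdh gap as a covariate and 1 in the mean over ages without arrays of a Gapdh gap over 1, Sf3b5 in both. Leaving out single arrays gave 30 to 33 (wild type) and 31 to 36 (mutant) from day 1 to day 20, 8 to 14 and 4 to 12 from day 20 to day 49, 0 to 1 for genotype at day 49 and 0 to 0 for the other genotype counts. These counts include members called in either direction. Of 1169 alternatives for 73 single-gene differences, 1071 kept direction and call, 92 lost the call, 3 gained one and 3 reversed: by the second brightest probe set, Srsf10 differed by 0.012 in the wild type, and U2af2 by 0.16 in the wild type and 0.15 in the mutant. The replicate block gave counts of 35, 15, 36 and 10 for the 4 age comparisons and 0 for each genotype comparison. For day 1 to day 20 in the wild type, where every same-numbered pair correlated over 0.1, it changed no other call than those of Sf3a1, Sf3b5, Hnrnpdl and Srsf3 given with the results. Elsewhere 1 or 2 of 3 pairs did, and Srsf11 (later step, wild type) and Srsf7-ps4 (first step, mutant) lost their calls under the block while Srsf3 gained one in the mutant. Symbols updated through gene identifiers were not run, because the reference tables used here are of mouse. Leaving out arrays takes away power as well as the array, and the other causes of these shifts were not tested.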
